A study of Mus musculus with 9 samples.

Results

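Genes for the subunits of voltage-gated calcium channels, voltage-gated sodium channels and transient receptor potential (TRP) channels were compared between Rathke's pouch, the embryonic primordium of the pituitary, and the adult gland in the mouse. The members were the protein-coding genes whose symbol starts with Cacna, Cacnb or Cacng, with Scn followed by a number and a or b, or with Trpc, Trpm or Trpv followed by a number. These were 63 of the 55450 annotated genes. Of these, 61 encode channel subunits. The symbol rule also takes Trpc4ap, whose protein binds a TRP channel, and Trpc5os, which lies on the strand opposite to Trpc5.

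A voltage-gated calcium channel is built around a pore subunit (Cacna1 genes), which a cytoplasmic β subunit (Cacnb) and an extracellular α2δ subunit (Cacna2d) bring to the membrane, while voltage-gated sodium channels (a pore-forming α and small β subunits, both Scn genes) carry the fast upstroke of action potentials. TRP channels pass cations in response to lipids, second messengers, temperature or internal calcium. Endocrine cells of the anterior pituitary fire action potentials without input from neurons, and the calcium that enters them through L-type channels couples this activity to hormone release.

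RNA was sequenced from 7 Rathke's pouches dissected at embryonic day 13.5 and from the pituitaries of 2 mice of postnatal week 8, from which the posterior lobe had been removed. The embryos were Sox2Egfp/+, that is, a reporter replaces 1 copy of the progenitor gene Sox2, and the genotype of the adults at this locus is not stated. All animals were on a mixed 129Sv/c57BL6J background and both stages held males and females, but the sex of each animal is not given. Each library was made from bulk tissue, in which fewer cells of a type and less RNA per cell cannot be told apart.

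The authors' count tables give, for each gene, the read pairs on the gene's own strand. Their sum ranged from 16738863 to 28537311 in the embryos and was 36421545 and 31191117 in the adults. Values are given as CPM, counts relative to the library total after scaling with edgeR's TMM factors. Levels of different members are compared as CPM per kb, that is, CPM divided by the length of the longest protein-coding transcript. Levels and shares compared between genes depend on this choice of length. The ratio of Scn3a to Scn2a is one of counts. In the marker lists, the gene named as leading is the one with the highest CPM, without regard to length. A gene was taken as detected in a library with more than 3 counts, a floor that equals 0.0963 to 0.220 CPM in an embryo and 0.0727 and 0.0843 CPM in the adults. This floor covers counting error only. The adult libraries were the deeper ones, and the part of depth in the counts of detected genes was not tested.

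Embryos 1 and 4 stood apart from the other 5. Genes took 59.7% and 62.8% of their read pairs. The remaining embryos had 73.9% to 80.0% and the adults 84.0% and 83.7%. The summed level of 5 red blood cell genes, of which Hbb-y had the highest CPM, was 135000 and 175800 CPM in embryos 1 and 4. It lay between 5284 and 15590 CPM in the remaining embryos, with 291 and 622 CPM for the adults. Counts of called members are therefore given with and without these 2 libraries.

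The markers followed the labels. Of 7 hormone genes (Gh, Prl, Pomc, Cga, Tshb, Lhb and Fshb), 6 were called higher in the adult, and their sum was 870 to 1920 CPM in the embryos and 152500 and 160100 CPM in the adults. Of 6 pouch progenitor genes, of which Pitx1 led in the embryos, 2 were called higher in the embryo, with sums of 503 to 1173 CPM against 468 and 389 CPM. Other cells that use these channels were looked for with marker lists as well. Of 8 neuronal genes 2 were called higher in the adult, Map2, with the highest CPM there, and Rbfox3. The sum over the 8 was 240 to 427 CPM in the embryos and 503 and 492 CPM in the adults. Map2 alone had 268 and 311 CPM in the adults and a mean of 40.5 CPM in the embryos. Nefl, Stmn2 and Tubb3 had higher means in the embryos and did not pass the adjusted p. The rest had higher means in the adults. The sums for peripheral sensory neurons were 5.88 to 13.6 CPM against 5.60 and 4.95 CPM (5 of 6 genes tested, Isl2 with the highest CPM at both stages). For skeletal muscle they were 6.19 to 17.4 CPM against 15.4 and 55.9 CPM. Ttn, a very long gene, had the highest CPM in the adults, and Myod1 and Myh3 were at 0 there. Of these 8 muscle genes 2 were called higher in the adult and 5 in the embryo. The list for hypothalamus and posterior lobe summed to 50.4 to 170 CPM against 6.38 and 9.73 CPM, with 4 of 6 called higher in the embryo (Rax led there) and 2 in the adult, among them Avp, which had no count in any embryo. The part of these cell types in the channel results was not tested.

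Lists for supporting tissue were mostly higher in the embryo. Mesenchyme genes were called higher in the embryo in 5 of 6 cases (586 to 2146 CPM against 548 and 338 CPM, led by Col3a1 in the embryos). Endothelium gave 2 of 6 (180 to 622 CPM against 126 and 75.9 CPM, led by Cldn5) and smooth muscle and pericytes 2 of 5 (136 to 388 CPM against 113 and 67.9 CPM, led by Acta2). Schwann cell genes had 1 of 6 called in each direction, with Erbb3 in the lead and Foxd3 at 0 in the adults (23.3 to 49.6 CPM against 26.4 and 30.2 CPM). For macrophages 1 of 5 was called higher in the adult (92.7 to 230 CPM, led by C1qb, against 71.4 and 111 CPM), and 4 of the 5 red blood cell genes were called higher in the embryo. Photoreceptor and melanocyte lists stayed below 2 CPM in every library: Crx and Pde6b had no count, Tyrp1 had none in the embryos, and of the 1 and 2 genes tested 1 each was called higher in the adult.

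Most channel genes had more RNA in the adult gland than in the pouch. Wide differences were seen in genes for pores, such as the T-type calcium channel gene Cacna1i, the sodium channel genes Scn7a and Scn3a and the L-type gene Cacna1d. Among the auxiliary subunits Cacna2d1 and Cacnb2 were higher in the adult, and Cacnb3 was high at both stages. Cacng4, Trpm5 and Trpv6 went the other way and were higher in the pouch.

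An edgeR quasi-likelihood fit covered the 19371 genes whose mean count reached 5, and a gene was called at a Benjamini-Hochberg adjusted p below 0.05 together with a fold change above 4. Of the 63 members, 57 passed the count filter, among them 49 whose mean reached 5 at each stage. The members called higher in the adult were 26, where 14.6% of all tested genes were called in that direction. Those called higher in the embryo were 3, where the share among all genes was 11.3%. A further 9 members passed the adjusted p with a smaller fold and a higher adult level, 2 (Trpm4 among them) did so with a higher embryo level, and 17 did not pass. At any fold, 27.4% of all genes passed the adjusted p with a higher adult level and 24% with a higher embryo level. Some members reached the count filter only through the adults. Among the 49 with a mean of 5 at each stage, 21 were called higher in the adult and 3 in the embryo. Of the 17026 genes that reached 5 at each stage, 2075 and 1601 were. The median log2 fold change, embryo over adult, was −1.96 over the tested members and −0.04 over all tested genes. It was also −1.96 with Scn10a, which no embryo library detected, set at the bound that the floor gives. That bound, −4.09, lies below the median, as the fitted value does, so the change could not have moved the median.

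Read by library, 37 tested members had both adults above all 7 embryos, an order that 32.9% of all tested genes showed. Another 5 had both adults below all embryos, against 26.2% of genes, and 59.1% of genes had stages without overlap in either direction. Without embryos 1 and 4, edgeR called 28 members higher in the adult (16.2% of all genes) and 5 higher in the embryo (11.5%), and the median was −2.13. With the replicate number as a block in the model the calls were 19 (12.6%) and 3 (9.27%). Only embryos 1 and 2 share a number with an adult. The stage difference in that model therefore rests on embryos 1 and 2 against the adults, and the other embryos do not add to it. For comparison, of 81 tested potassium channel genes (94 with symbols starting Kcn) 37 were called higher in the adult and 8 in the embryo, with a median of −1.55. With a correction for length and GC content, described further on, this median was −1.43 and that of the channel genes −1.004, so that their order turned. No test of the difference between these lists was made.

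Of the 63 members, 57 had more than 3 counts in both adult libraries and 38 had so in all 7 embryos, a stricter demand in shallower libraries. Of all 19371 tested genes, 18043 and 15092 had. At each stage 5 members were at or under the floor in all libraries. With a floor of 10 counts the numbers of members were 54 in both adults and 33 in all embryos. Trpc2, Trpc5os, Trpv1 and Trpv5 stayed at or under the floor of 3 counts in all 9 libraries. In addition, Scn10a did so in all embryos and Trpm8 in both adults. These genes other than Scn10a, together with Cacng1, are the 6 that were not tested. Trpc2, a channel of pheromone-sensing neurons, lies wholly within an annotated gene on its own strand, so that its 0 counts do not show whether it is transcribed.

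**Figure D1:**
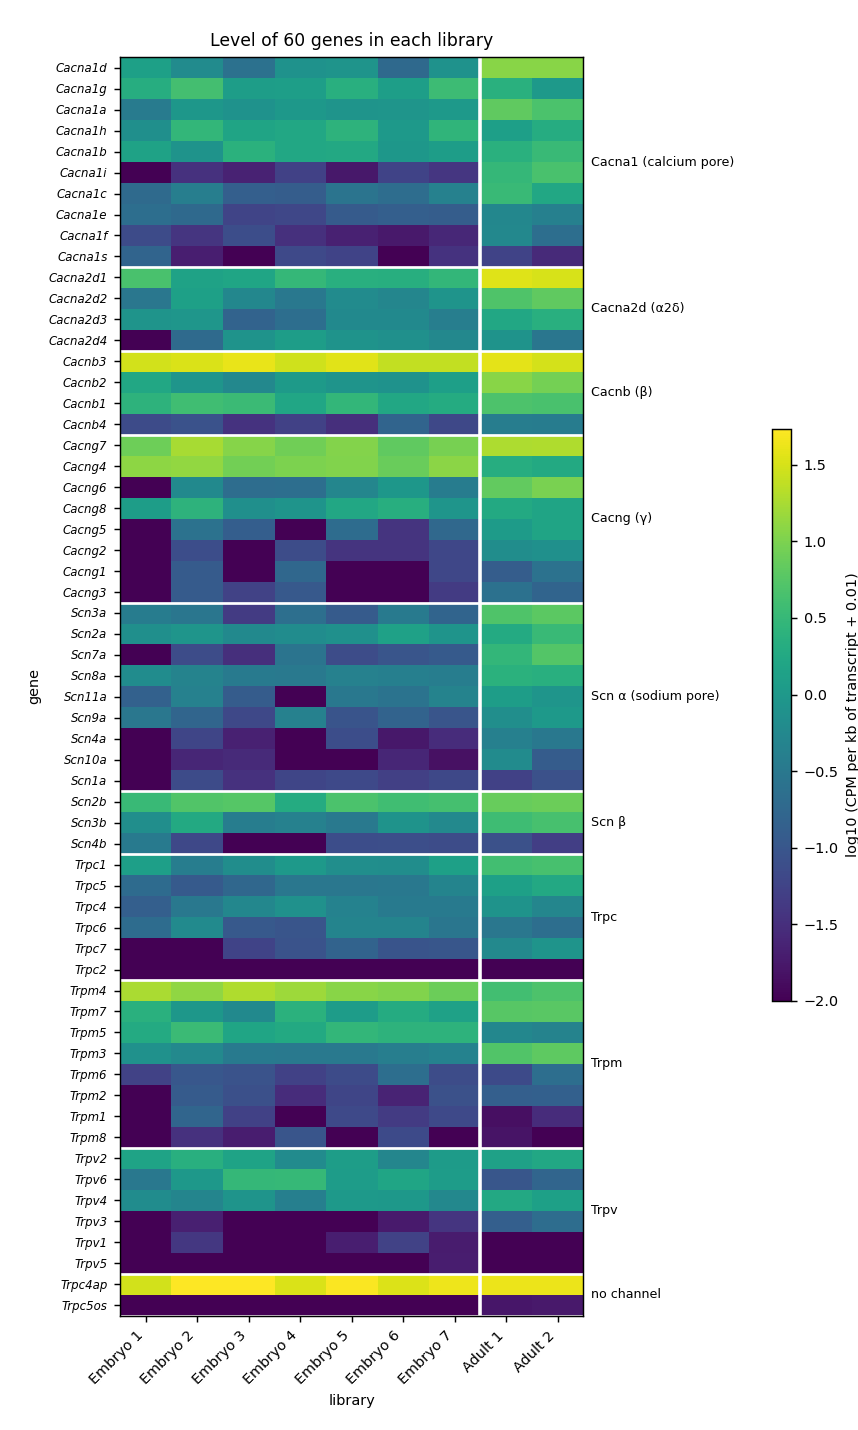
Levels of 60 of the 63 members (one line each, grouped by family) in the 7 embryo and 2 adult libraries, coloured by log10 of CPM per kb plus 0.01. Trpc4ap and Cacnb3 are bright in all 9 libraries, while Cacna1d, Cacna2d1, Scn3a and Scn7a brighten in the 2 adults and Cacng4 and Trpm4 in the 7 embryos.

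**Figure D2:**
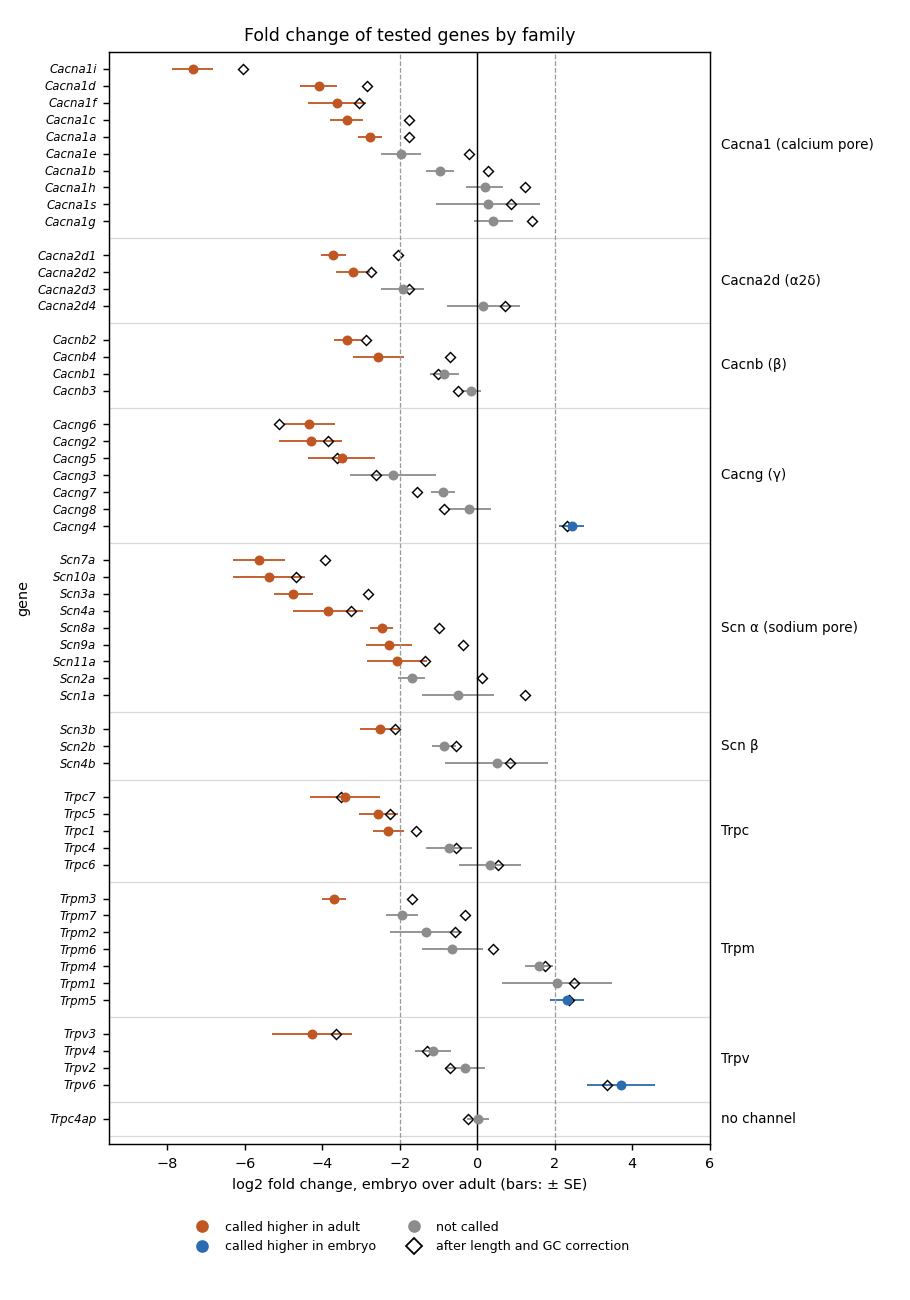
Log2 fold change, embryo over adult, of 54 of the 57 tested members by family, with standard errors; diamonds give values corrected for length and GC content of the transcript, and dashed lines mark a fold of 4. Cacng4, Trpm5 and Trpv6 are the members called on the embryo side, and Cacna1i lies farthest to the adult side at −7.35.

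The 10 pore genes of calcium channels summed to 7.58 ± 2.07 CPM per kb (SD, n = 7) in the embryos and 30.7 ± 1.42 CPM per kb (SD, n = 2) in the adults. Of these, 5 were called, all higher in the adult: Cacna1a, Cacna1c, Cacna1d, Cacna1f and Cacna1i. Cacna1b and Cacna1e, for the N-type and R-type pores of nerve terminals, passed the adjusted p with smaller folds (log2 −0.95 and −1.96), which the correction for length and GC content brought to 0.27 and −0.21. Without embryos 1 and 4, Cacna1b did not pass (log2 −0.96, edgeR adjusted p 0.0535) and Cacna1e was called (−2.004). The remaining 3, Cacna1g, Cacna1h and Cacna1s, did not pass. With the correction the log2 fold change of Cacna1g went from 0.41 to 1.40. It then passed the adjusted p (0.0330, edgeR) but not the fold. That of Cacna1h went from 0.20 to 1.22 and did not pass (edgeR adjusted p 0.0605).

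Cacna1d (ENSMUSG00000015968.17, chromosome 14, 30039939 to 30491455 on the minus strand of GRCm38) encodes an L-type pore that opens at less depolarised voltages than other L-type channels. Its level was 1.53 to 11.6 CPM in the embryos with a median of 6.77 CPM, and 100.6 and 101.2 CPM in the adults. The adults were nearly equal and lay far above every embryo. The log2 fold change was −4.09 ± 0.47 (SE), with an edgeR adjusted p of 1.36e-05 and the same order in all 9 libraries. At 11.6 ± 0.0505 CPM per kb (SD, n = 2) Cacna1d had the highest level of the calcium pore genes in the adults. Cacna1c, which encodes the L-type pore of heart and smooth muscle, stood at 2.53 ± 1.13 CPM per kb there, with a log2 fold change of −3.37, or −1.76 and not called with the correction for length and GC content. The other L-type genes had few counts. Cacna1f, known from the retina, had 28 over the embryos and 182 over the adults, and Cacna1s, known from skeletal muscle, had 33 and 16.

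Together the L-type genes made up 13.2% ± 6.45 (SD, n = 7) of the summed CPM per kb of the 10 pore genes in the embryos and 47.3% ± 2.14 (SD, n = 2) in the adults. The embryo shares ran from 6.71% to 26.4%, and the adult shares were 48.9% and 45.8%. The stages did not overlap, and embryo 1 was the highest embryo. A two-sided exact permutation test over the libraries gave p = 0.0556, the smallest that 7 against 2 libraries allow. A share of this kind is taken within a library and does not depend on scaling between libraries. It can depend on length and GC effects that differ between libraries, and it was not computed with the correction for these. Without embryo 1 the embryo mean was 11.01%, and without embryos 1 and 4 it was 10.3%.

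T-type channels open near the resting potential and inactivate fast. Cacna1i (ENSMUSG00000022416.15, chromosome 15, 80287238 to 80398279 on the plus strand) encodes the T-type pore with the slowest kinetics. It had 36 counts over the 7 embryos, at 0 to 0.446 CPM with a median of 0.236 CPM, and 30.4 and 44.5 CPM in the adults. Every embryo was near the floor and both adults were well above it. The log2 fold change of −7.35 ± 0.53 (edgeR adjusted p 3.12e-07) was the lowest of all tested members. The other T-type genes did not follow it. Cacna1g stood at 2.26 ± 1.19 CPM per kb in the embryos and 1.70 ± 0.942 CPM per kb in the adults, and Cacna1h at 1.89 ± 0.890 and 1.65 ± 0.535 CPM per kb, with stages that overlapped for both. Cacna1g and Cacna1h were the most abundant pore genes per kb in the embryos.

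The pore genes of the embryo were thus spread over other types than those of the adult. T-type genes held 52.9% ± 10.9 (SD, n = 7) of the summed CPM per kb in the embryos and 23.5% ± 3.08 (SD, n = 2) in the adults, without overlap. The P/Q-, N- and R-type genes held 34.0% ± 11.1 and 29.2% ± 0.940, and here the stages overlapped. Cacna1a, for the P/Q-type pore, had 2.78 to 8.31 CPM in the embryos with a median of 6.98 CPM, and 52.6 and 37.3 CPM in the adults. Both adults lay above every embryo, and embryo 1 was the lowest. Its log2 fold change was −2.77 ± 0.32 (edgeR adjusted p 1.35e-05), and −1.76, not called, with the correction for length and GC content. Among pore genes of the adult, Cacna1d alone held 37.9% ± 1.92 and Cacna1a 18.4% ± 3.59. Cacna1i rose from 0.349% ± 0.347 in the embryos to 12.6% ± 3.91 in the adults.

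**Figure D3:**
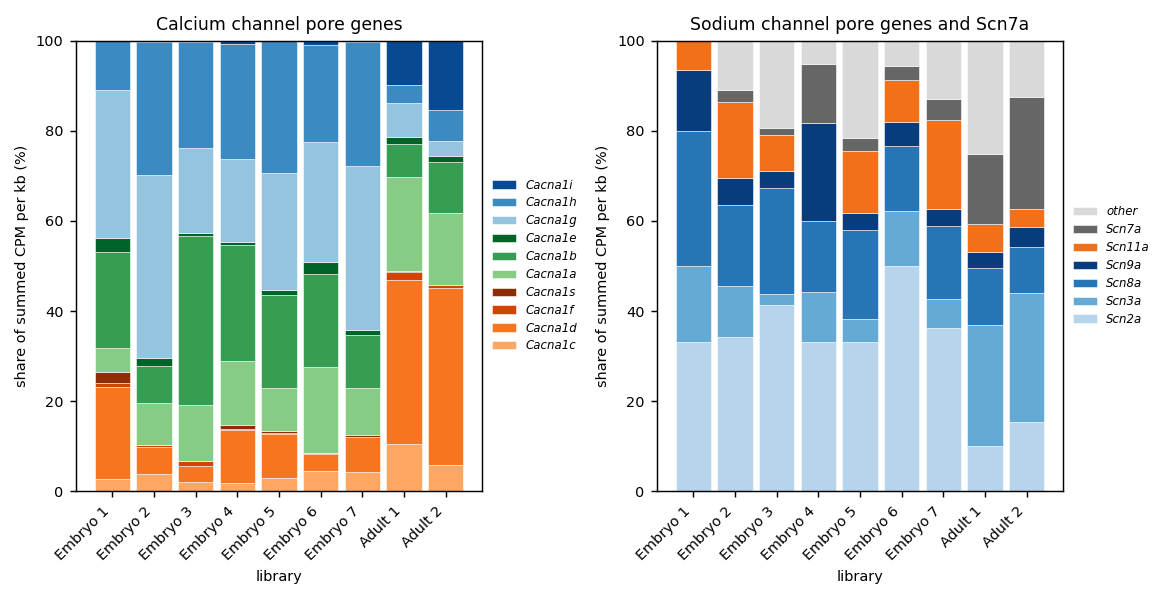
Share of each gene (%) in the summed CPM per kb of the 10 calcium channel pore genes and of the 10 sodium channel α genes, one stacked bar for each of the 7 embryos and 2 adults; less abundant or unnamed α genes are pooled as other. Cacna1d takes 36.5% and 39.2% of the calcium pores in the adults against 3.70% to 20.3% in the embryos, and Scn3a 26.9% and 28.5% of the sodium α genes against 2.44% to 16.9%.

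The α2δ subunits raise the number of calcium channels in the membrane. Their 4 genes summed to 4.34 ± 0.837 CPM per kb (SD, n = 7) in the embryos and 42.1 ± 1.38 CPM per kb (SD, n = 2) in the adults. Cacna2d1 (ENSMUSG00000040118.15, chromosome 5, 15934691 to 16374511, plus strand) made up most of this. Its level was 10.4 to 33.8 CPM in the embryos with a median of 16.8 CPM, and 263 and 238 CPM in the adults. Each adult exceeded each embryo several-fold. The log2 fold change was −3.71 ± 0.33 (edgeR adjusted p 1.52e-06). Cacna2d2 had 1.69 to 7.54 CPM in the embryos with a median of 3.09 CPM, and 29.8 and 38.4 CPM in the adults. It too had its adults above all embryos, with a log2 fold change of −3.21 ± 0.43. Cacna2d3 passed the adjusted p with a log2 fold change of −1.92, below the fold asked for. Cacna2d4, known from photoreceptors, did not pass, and embryo 1 had no count of it.

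The β subunits bind the pore inside the cell and help it to reach the membrane. Cacnb3 (ENSMUSG00000003352.14, chromosome 15, 98630840 to 98644529, plus strand) was the most abundant calcium channel gene per kb in the embryos. It had 66.7 to 110 CPM there with a median of 82.4 CPM, and 104 and 85.9 CPM in the adults. The stages overlapped. Its log2 fold change of −0.15 ± 0.26 did not pass (edgeR adjusted p 0.635). With the correction for length and GC content it was −0.49 and passed the adjusted p (0.0243, edgeR) but not the fold. Its level was 31.2 ± 5.84 CPM per kb (SD, n = 7) in the embryos, and 34.7 ± 4.69 CPM per kb (SD, n = 2) in the adults, at each stage above the sum of all 10 pore genes. Divided by the joined length of all its exons, it was 21.3 CPM per kb in the embryos and 23.7 CPM per kb in the adults. On joined exons the adult level was close to the sum of the pore genes.

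Cacnb2, the β subunit of heart muscle, was the member of this family that moved most. It had 2.11 to 6.89 CPM in the embryos with a median of 3.45 CPM, and 46.1 and 35.9 CPM in the adults. Both adults lay above the embryos, with a log2 fold change of −3.35 ± 0.34 (edgeR adjusted p 5.19e-06). The share of Cacnb3 in the family was 89.4% ± 1.79 (SD, n = 7) in the embryos and 69.2% ± 0.137 (SD, n = 2) in the adults, and that of Cacnb2 3.08% ± 1.38 and 20.6% ± 0.893. Neither share overlapped between the stages. Both depend on the length used. Divided by the joined length of all its exons, Cacnb2 had 0.305 CPM per kb in the embryos and 3.10 CPM per kb in the adults. With its longest transcript these were 1.02 and 10.4 CPM per kb. On joined exons its share is smaller at both stages. Cacnb4 was called higher in the adult with a log2 fold change of −2.56 from 80 and 233 counts, which the correction for length and GC content brought to −0.70, no longer called. Cacnb1, the β subunit of skeletal muscle, did not pass (log2 −0.85). With the correction it was at −1.004 and passed the adjusted p (0.00553, edgeR) but not the fold.

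The γ genes are a mixed group. Cacng1 and Cacng6 belong to the branch found with muscle calcium channels, and the other 6 encode proteins that traffic AMPA-type glutamate receptors (TARPs). Cacng4 (ENSMUSG00000020723.3, chromosome 11, 107732357 to 107794557, minus strand) is a TARP. Its level was 26.4 to 47.2 CPM in the embryos with a median of 37.1 CPM, and 7.37 and 6.47 CPM in the adults. All embryos lay above both adults, with a log2 fold change of 2.44 ± 0.33 (edgeR adjusted p 4.71e-05). Cacng6 had 0 to 1.83 CPM in the embryos with a median of 0.706 CPM, and 13.6 and 19.1 CPM in the adults. It was the reverse of Cacng4, with all embryos low, and its log2 fold change was −4.33 ± 0.65 (edgeR adjusted p 0.000118).

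Cacng7, a TARP, was abundant at both stages, with 14.7 to 38.7 CPM in the embryos with a median of 20.8 CPM, and 42.0 and 42.5 CPM in the adults. The highest embryo came close to the adults without reaching them, and the log2 fold change of −0.88 ± 0.31 passed the adjusted p (0.0297, edgeR) but not the fold. Without embryos 1 and 4 it was −0.75 and did not pass (edgeR adjusted p 0.0583). In the summed CPM per kb of the family, Cacng4 went from 46.9% ± 6.67 (SD, n = 7) in the embryos to 5.95% ± 0.910 (SD, n = 2) in the adults and Cacng6 from 1.82% ± 1.69 to 24.6% ± 4.32, while Cacng7 held 44.1% ± 6.14 and 57.3% ± 3.03. The sum itself moved less, from 23.1 ± 5.57 to 33.4 ± 2.04 CPM per kb. Cacng2 and Cacng5 were also called higher in the adult (log2 −4.30 and −3.50), from 32 and 80 counts over the embryos. Cacng3 and Cacng8 did not pass, and Cacng1 had 9 and 17 counts.

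Sodium channel α genes were at low levels in the pouch. The sum over the 10 genes was 2.18 ± 0.430 CPM per kb (SD, n = 7) in the embryos and 20.5 ± 2.24 CPM per kb (SD, n = 2) in the adults. Scn3a (ENSMUSG00000057182.14, chromosome 2, 65457118 to 65567627, minus strand) encodes a channel best known from the developing brain. In the pituitary it was the adult stage that had it: 0.325 to 3.44 CPM in the embryos with a median of 2.12 CPM, and 48.5 and 60 CPM in the adults. The stages lay far apart, with a log2 fold change of −4.75 ± 0.50 (edgeR adjusted p 6.59e-06). Scn2a, its neighbour on the chromosome and also a channel of brain neurons, had 5.16 to 12.2 CPM in the embryos with a median of 6.52 CPM, and 16.8 and 30.5 CPM in the adults. Its log2 fold change of −1.69 passed the adjusted p but not the fold, and the correction for length and GC content turned it to 0.12 (edgeR adjusted p 0.804).

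Which of these 2 genes led differed by stage. The log2 ratio of Scn3a to Scn2a counts, with 0.5 added to each, was −2.09 ± 0.999 (SD, n = 7) in the embryos and 1.26 ± 0.39 (SD, n = 2) in the adults. It ran from −3.91 to −0.86 over the embryos and was 1.53 and 0.98 in the adults, so every embryo had more of Scn2a and both adults more of Scn3a. The exact permutation test, two-sided, gave p = 0.0556, again the smallest possible. The transcripts of the pair are of similar length (9560 and 8935 bases).

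Scn7a (ENSMUSG00000034810.7, chromosome 2, 66673425 to 66784914, minus strand) encodes Nax, which is gated by external sodium rather than voltage. It had 0 to 1.91 CPM in the embryos with a median of 0.473 CPM, and 21.5 and 40.1 CPM in the adults. Embryo 1 had no count, embryo 4 had the highest level of the embryos, and both adults were far above. The log2 fold change was −5.63 ± 0.66 (edgeR adjusted p 1.61e-05). Scn10a and Scn11a encode channels that tetrodotoxin blocks poorly. Scn10a was called from 9 counts over the embryos and 198 over the adults, 4.15 and 0.759 CPM, and since no embryo library exceeded the floor, its fitted fold change is not given. Scn11a was called with a log2 fold change of −2.07 (264 and 470 counts), but not with the correction for length and GC content (−1.35), with the replicate block, without embryos 1 and 4 (−1.70), or in 6 of the 9 fits that leave out 1 library.

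Of the 6 genes for channels that tetrodotoxin blocks, 4 were called: Scn3a, Scn4a, Scn8a and Scn9a. Scn8a, a channel of axon initial segments, had a log2 fold change of −2.47, Scn9a one of −2.28 and Scn4a, the channel of skeletal muscle, one of −3.86 from 29 counts over the embryos and 184 over the adults. With the correction for length and GC content Scn8a (−0.98) and Scn9a (−0.37) were not called, and Scn9a was not called without adult 2 either. Scn1a had 60 and 37 counts and did not pass. Within the sum over α genes, Scn2a and Scn8a held 37.3% ± 6.36 and 19.6% ± 5.48 (SD, n = 7) in the embryos and 12.7% ± 3.90 and 11.4% ± 1.75 (SD, n = 2) in the adults. Scn3a and Scn7a moved in the other direction, from 9.38% ± 4.98 and 4.01% ± 4.31 to 27.7% ± 1.12 and 20.2% ± 6.55. None of these 4 shares overlapped between the stages.

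The sodium channel β subunits are single-pass proteins that also act in cell adhesion. Their 4 genes summed to 7.16 ± 1.98 CPM per kb (SD, n = 7) in the embryos, above the sum of the 10 α genes there, and to 20.5 ± 1.40 CPM per kb (SD, n = 2) in the adults, where the α sum was 20.5 ± 2.24 CPM per kb. Scn2b had 9.24 to 26.0 CPM in the embryos with a median of 20.1 CPM, and 34.4 and 35.96 CPM in the adults. Both adults lay above the embryos, with a log2 fold change of −0.86 ± 0.32 (edgeR adjusted p 0.0370). With the correction for length and GC content it was −0.56 and did not pass (edgeR adjusted p 0.0782). Scn3b was called (log2 −2.52), and Scn4b, with 56 and 22 counts, did not pass.

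TRPC channels open downstream of receptors that activate phospholipase C. Trpc1, which forms channels with other members of the family, had 1.72 to 6.001 CPM in the embryos with a median of 3.19 CPM, and 18.4 and 20.2 CPM in the adults. It was called higher in the adult with a log2 fold change of −2.30 ± 0.40 (edgeR adjusted p 0.000341), and no embryo came near the adults. With the correction for length and GC content it was −1.57 and not called. Trpc5 and Trpc7 were called as well (log2 −2.56 and −3.42, from 178 and 38 counts over the embryos), and Trpc4 and Trpc6 did not pass. In the sum over the family, which was 5.07 ± 0.838 CPM per kb (SD, n = 7) in the embryos and 8.21 ± 0.443 CPM per kb (SD, n = 2) in the adults, Trpc1 held 17.3% ± 7.51 and 51.5% ± 0.543.

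Trpc4ap, which is no channel and takes part in protein degradation as well, had 95.5 to 173 CPM in the embryos with a median of 141 CPM, and 135 and 136 CPM in the adults. The adults lay within the range of the embryos. Its log2 fold change was 0.03 ± 0.28 (edgeR adjusted p 0.944). Per kb it was the most abundant member at both stages, at 43.0 ± 10.3 CPM per kb in the embryos and 42.2 ± 0.202 CPM per kb in the adults. Over the 61 channel genes alone, the sum was 106.2 ± 14.03 CPM per kb (SD, n = 7) in the embryos and 225.8 ± 4.33 CPM per kb (SD, n = 2) in the adults.

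The TRPM family was split between the stages. Its summed level was 18.3 ± 3.84 CPM per kb (SD, n = 7) in the embryos and 16.9 ± 1.78 CPM per kb (SD, n = 2) in the adults, with overlap. Trpm4 and Trpm5 encode channels for monovalent cations that internal calcium opens. Trpm5 (ENSMUSG00000009246.14, chromosome 7, 143069153 to 143094642, minus strand) is best known from taste cells. It had 6.46 to 14.6 CPM in the embryos with a median of 10.6 CPM, and 2.13 and 1.88 CPM in the adults. All embryos lay above both adults, with a log2 fold change of 2.31 ± 0.44 (edgeR adjusted p 0.000658). Trpm4 had 32.6 to 83.3 CPM in the embryos with a median of 55.1 CPM, and 17.1 and 21.03 CPM in the adults. It showed the same order at a smaller fold, log2 1.60 ± 0.36 (edgeR adjusted p 0.00226).

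Trpm3 and Trpm7 had the opposite order. Trpm3, a channel opened by heat and by the steroid pregnenolone sulphate, had 3.81 to 9.45 CPM in the embryos with a median of 4.80 CPM, and 63.6 and 78.3 CPM in the adults. The log2 fold change was −3.70 ± 0.32 (edgeR adjusted p 1.12e-06), with both adults far above the embryos. With the correction for length and GC content it was −1.68 and not called. Trpm7, a magnesium-permeable channel fused to a kinase, had 4.18 to 17.1 CPM in the embryos with a median of 9.76 CPM, and 40.8 and 42.9 CPM in the adults. Its log2 fold change of −1.94 ± 0.40 (edgeR adjusted p 0.00122) fell just below the fold asked for, and with the correction for length and GC content it was −0.32 (edgeR adjusted p 0.391). Trpm4 thus held 73.5% ± 8.29 (SD, n = 7) of the family in the embryos and 26.6% ± 1.04 (SD, n = 2) in the adults, and Trpm3 2.49% ± 0.874 and 34.0% ± 1.41. Trpm1, Trpm2 and Trpm6 did not pass, at 55, 67 and 91 counts over the embryos, and Trpm8, the cold receptor, had 14 and 1. Without embryos 1 and 4, Trpm1 was called higher in the embryo (log2 2.52, edgeR adjusted p 0.042), and so it was there with the correction.

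TRPV channels were at low levels, with sums of 3.55 ± 0.979 CPM per kb (SD, n = 7) in the embryos and 3.35 ± 0.0467 CPM per kb (SD, n = 2) in the adults. Trpv6 (ENSMUSG00000029868.13, chromosome 6, 41620624 to 41636405, minus strand) encodes a calcium-selective channel of absorbing epithelia. It had 0.879 to 9.17 CPM in the embryos with a median of 3.37 CPM, and 0.267 and 0.450 CPM in the adults. All embryos lay above both adults although they differed widely among themselves, and the log2 fold change was 3.70 ± 0.87 (edgeR adjusted p 0.00291). Trpv4, opened by cell swelling, had 1.27 to 3.23 CPM in the embryos with a median of 2.05 CPM, and 5.67 and 4.27 CPM in the adults. The adults lay above the embryos by a smaller fold, log2 −1.14 ± 0.46 (edgeR adjusted p 0.0485). Without embryos 1 and 4 the log2 fold change was −0.98 and did not pass (edgeR adjusted p 0.0563). Trpv3 was called higher in the adult from 8 and 72 counts, Trpv2 did not pass, and Trpv1 and Trpv5 had 8 and 1 counts over the embryos and none in the adults.

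**Figure D4:**
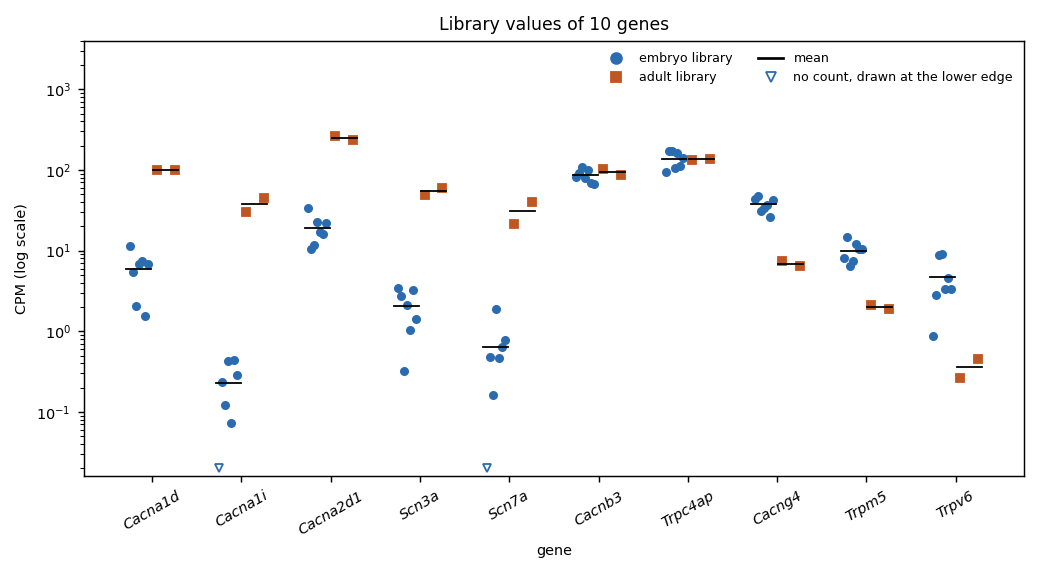
CPM on a log scale of 10 members in each of the 7 embryos and 2 adults, one point a library. Cacna1d, Cacna1i, Cacna2d1, Scn3a and Scn7a are higher in both adults than in every embryo, Cacng4, Trpm5 and Trpv6 are lower, and for Cacnb3 and Trpc4ap the adult points lie within or beside the embryo range.

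Several members are neighbours in the genome, and neighbours did not move together throughout. On chromosome 2, Scn3a, Scn2a, Scn1a, Scn9a and Scn7a follow each other between 65457118 and 66784914, with log2 fold changes of −4.75, −1.69, −0.49, −2.28 and −5.63 in that order. On chromosome 11, Cacng4 (called higher in the embryo) and Cacng5 (called higher in the adult) are adjacent members of the family. On chromosome 7, Cacng7, Cacng8 and Cacng6 lie between 3332955 and 3435667, with log2 fold changes of −0.88, −0.21 and −4.33.

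Channel transcripts are long, and long transcripts were lower in the embryo libraries among all genes. The median length of the longest protein-coding transcript was 5803 bases over the tested members and 2764 bases over all tested genes. Across the 19371 tested genes the Spearman correlation of length with the log2 fold change was −0.405, and across the 57 tested members it was −0.370. Genes share libraries and are not independent, so these values are descriptions. When all tested genes were put in 10 classes by length, the longest class held 23 of the 57 members, 14 of them called higher in the adult, where 32.2% of all genes in the class were called so and their median was −1.40. Set against the median of their class, 40 of the 57 members were lower, with a median difference of −1.07.

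Each library was also corrected for transcript length and GC content with splines fitted across genes, which brought the correlation over all genes to 0.058. After it edgeR called 19 members higher in the adult (13.6% of all genes) and 3 in the embryo (6.94%), and the median was −1.004 over the members and −0.16 over all genes. The calls shared with the uncorrected fit were 18 in the adult. Cacna1a, Cacna1c, Cacnb4, Scn8a, Scn9a, Scn11a, Trpc1 and Trpm3 were no longer called. Their corrected log2 fold changes ran from −1.76 (Cacna1a and Cacna1c) and −1.68 (Trpm3) to −0.70 (Cacnb4) and −0.37 (Scn9a), and that of Cacna1e, not called before, was −0.21. Of the genes with wide differences that kept their call, Cacna1i had a corrected log2 fold change of −6.05, Cacng6 −5.12, Scn7a −3.92, Cacnb2 −2.88, Cacna1d −2.85, Scn3a −2.82 and Cacna2d1 −2.06. Cacng4, Trpm5 and Trpv6 stood at 2.30, 2.38 and 3.34. The sign changed for Cacna1b (0.27), Scn1a (1.23), Scn2a (0.12) and Trpm6 (0.41), all lower in the embryo before, and for Trpc4ap (−0.24). Corrected medians by family were −0.98 for calcium pores, −1.91 for α2δ, −2.09 for sodium α and 0.41 for TRPM, against −2.37, −2.57, −3.16 and −0.64 before. For calcium β they were −0.85 (−1.70 before), for sodium β −1.35 (−1.42) and for TRPC −1.06 (−1.51). The medians of γ and TRPV moved the other way, to −2.62 (−2.18) and −1.01 (−0.73). The corrected values differ from the others by the part of each gene's change that goes with length and GC content in its library. Whether that part is technical or belongs to the tissue was not tested.

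**Figure D5:**
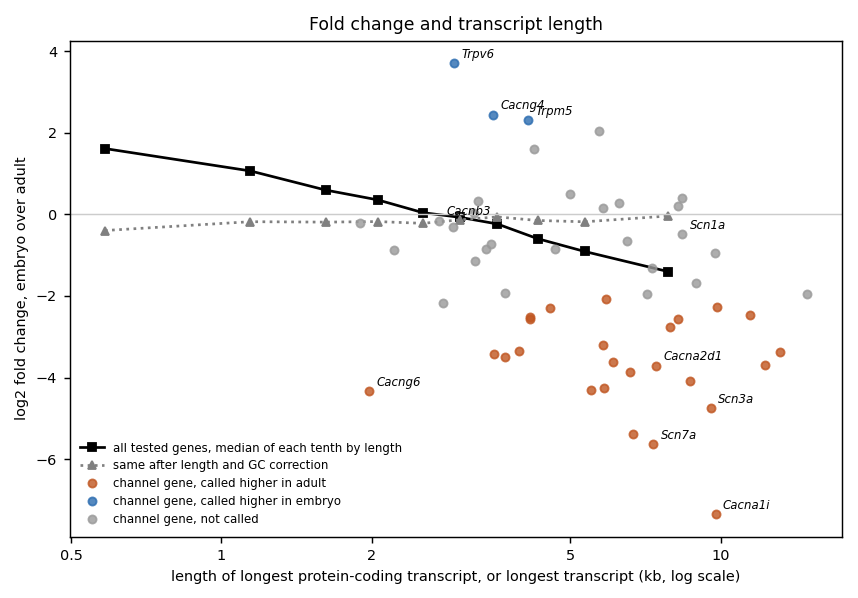
Log2 fold change, embryo over adult, against transcript length (log scale, kb) for 54 of the 57 tested members, with the median of all tested genes in each of 10 length classes. The class medians fall from 1.61 in the shortest to −1.40 in the longest class, and most members lie below the median of their class.

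The sequence before the start of transcription was read from RefSeq for the members that its promoter table holds (build GRCm38.p6). These were 51 of the 63. Those not in it include Cacna1a, Cacna1g, Cacna1h, Cacna2d4, Cacng1, Cacng4, Scn3a, Scn3b and Trpm4. A window was called CpG-rich with an observed over expected CpG ratio above 0.6 and a GC content above 50%. Such a window was found for 43.5% of the 46 tested members in the table and for 59.2% of its 13185 tested genes. The 5 untested members there had none. Among members called higher in the adult they were 11 of 22, among those not called 9 of 22, and neither of the 2 called higher in the embryo had one. The 250 bases before the start are shown for these 2 genes and for 3 called higher in the adult that differ in CpG content. They are Trpm5 (chr7:143094643-143094892, minus strand, 4 CpG), Trpv6 (chr6:41636406-41636655, minus strand, 1 CpG), Scn7a (chr2:66784911-66785160, minus strand, 3 CpG), Cacna1i (chr15:80286988-80287237, plus strand, 16 CpG) and Cacna2d1 (chr5:15934441-15934690, plus strand, 36 CpG). Capitals mark each CpG.
Trpm5: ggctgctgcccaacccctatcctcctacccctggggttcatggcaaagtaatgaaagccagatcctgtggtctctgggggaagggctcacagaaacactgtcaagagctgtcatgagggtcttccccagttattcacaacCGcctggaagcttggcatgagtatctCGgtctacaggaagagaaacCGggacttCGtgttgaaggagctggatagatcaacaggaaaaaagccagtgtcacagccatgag
Trpv6: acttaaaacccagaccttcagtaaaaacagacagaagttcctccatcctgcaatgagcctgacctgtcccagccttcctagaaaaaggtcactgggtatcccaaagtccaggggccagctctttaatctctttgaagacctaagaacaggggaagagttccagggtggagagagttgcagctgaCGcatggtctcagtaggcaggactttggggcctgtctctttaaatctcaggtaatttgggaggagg
Scn7a: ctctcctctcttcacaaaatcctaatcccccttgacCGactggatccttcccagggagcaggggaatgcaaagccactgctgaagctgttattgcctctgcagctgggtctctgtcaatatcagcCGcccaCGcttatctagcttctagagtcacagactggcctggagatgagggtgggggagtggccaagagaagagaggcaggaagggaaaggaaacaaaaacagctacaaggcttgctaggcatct
Cacna1i: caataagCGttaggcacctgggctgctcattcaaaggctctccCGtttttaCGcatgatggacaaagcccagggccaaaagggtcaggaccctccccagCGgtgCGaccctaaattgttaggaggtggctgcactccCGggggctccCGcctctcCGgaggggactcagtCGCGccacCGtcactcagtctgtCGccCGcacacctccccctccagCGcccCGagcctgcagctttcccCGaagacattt
Cacna2d1: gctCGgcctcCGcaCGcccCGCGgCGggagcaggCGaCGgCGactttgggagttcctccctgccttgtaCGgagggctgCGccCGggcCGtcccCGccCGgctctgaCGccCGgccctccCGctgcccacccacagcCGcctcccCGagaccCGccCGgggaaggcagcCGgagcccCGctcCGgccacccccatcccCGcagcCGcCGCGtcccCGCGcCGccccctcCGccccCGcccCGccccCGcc

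In these windows CpG pairs are scarce before Trpm5, Trpv6 and Scn7a and dense before Cacna2d1, and the direction of change does not follow from their number. Short motifs were searched on both strands of all windows, and none of them contains another. TATAAA, the core of the TATA box, was found in 4 of the 46 tested members (8.70%, against 8.75% of tested genes in the table). TAATCC, bound by PITX proteins, was found in 4 (8.70% against 6.45%), and TATNCAT, bound by POU1F1, also in 4 (8.70% against 5.14%). TTCAGCACC, part of the element bound by REST, which silences neuronal genes, was found in 0 of these members and 0.425% of tested genes. A match is a run of letters and not evidence of binding.

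Genes that work with these channels or handle calcium were read from a list of 68 symbols, which holds 67 genes, since Nalf1 is a newer symbol of Fam155a, and all of these were tested. edgeR called 23 of them higher in the adult (14.6% of all tested genes were) and 3 in the embryo (11.3%), 25 did not pass the adjusted p, and the median log2 fold change was −1.47. After the correction for length and GC the calls were 19 (13.6% of all genes) and 4 (6.94%) and the median −0.75. Unc80 and Unc79, partners of the sodium leak channel that sets the resting potential, had log2 fold changes of −6.07 and −4.81. Those of Camk2b, a subunit of the calcium- and calmodulin-dependent kinase, Atp2b2, a calcium pump of the plasma membrane, and Ryr2, a calcium release channel, were −4.999, −4.80 and −4.59. Stac, whose protein binds L-type channels, was called higher in the embryo (log2 4.14), as was Trpa1 (log2 2.12), a TRP channel gene that the symbol rule does not take. The third, Pkd2l1, was at the floor in both adults, and its stages overlapped.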

How the data were processed

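Poly(A) RNA of 7 embryonic Rathke's pouches and 2 adult pituitaries was sequenced as read pairs, which the authors trimmed (Trimmomatic 0.39) and aligned to mm10 with STAR 2.7.5b. Uniquely aligned pairs were counted per gene by the authors, and the deposited counts of the gene's own strand were used as raw counts. edgeR 4.0.16 (R 4.3.3, TMM, quasi-likelihood F test, stage as the only term) was fitted to the 19371 genes with a mean of 5 counts or more. Calls need a Benjamini-Hochberg adjusted p below 0.05 and a fold above 4. Positions, lengths and symbols are those of GENCODE M21 on GRCm38. Members with values in every library are the 2 with the highest CPM per kb of each family, those called higher in the embryo, the 8 largest changes among called members with a mean count of at least 100 and no overlap, and Trpc4ap. Other members are given by log2 fold change or counts, some only within counts and sums, and the values of Scn2a by library were added after they were seen. The members and lists were chosen with earlier results of these data known. Alternatives were DESeq2 1.42.0, other scalings, filters, thresholds and strands, splines with 4 degrees of freedom for length and GC, the replicate block, and leaving out libraries. The splines without embryos 1 and 4, and those for the calcium list, were chosen after seeing the data. Python 3.11.15 made the tables (pandas 2.3.3, numpy 2.4.6), the permutation tests (scipy 1.17.1) and the figures (matplotlib 3.10.9).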

Additional observations from a re-analysis of the deposited data

Results flagged for a closer look

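In 35 groups of 7 embryo values (named members, family sums and shares), 4 had a library whose gap to the nearest other, divided by the range, exceeded Dixon's critical value for 7 samples. Chance flags about 1 in 20 groups. Embryo 1 had 2.78 CPM of Cacna1a, where the others had 6.17 to 8.31 CPM, and an L-type share of 26.4%, where the others had 6.71% to 14.8%. Embryo 4 had 1.91 CPM of Scn7a, where the others had 0 to 0.770 CPM. In embryo 2 the Cacng genes summed to 34.7 CPM per kb, where the others had 17.3 to 24.0 CPM per kb. Embryos 1 and 4 are the libraries with a low counted share and high red blood cell genes, and the part of these in the values was not tested.

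Read pairs on the strand opposite to a member were not used in the comparison. They came to 4.59% to 5.45% of those on the gene's own strand over all genes of a library, and to 10% or more for 7 members, of which Trpv3 (9 counts) and Trpv5 (2 counts) had more than 3 such counts in no library. For Cacnb4 they were 652% (2040 counts against 313), with A430018G15Rik annotated on that strand, and for Trpc5os 950% (19 against 2), opposite to Trpc5. Trpm5 had 30.2% (557 counts, with Tssc4 opposite) and Trpv6 13.5% (102 counts). By stage, Trpm5 had 460 opposite counts against 1687 on its own strand in the embryos and 97 against 155 in the adults, and Trpv6 had 46 against 731 and 56 against 27. The last was Cacna1s with 10.2% (5 counts, all in the embryos). Differences of these counts between the stages were not tested.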

How the results depend on the processing

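Across 23 alternatives, the 24 members that the rule for library values takes gave 547 log2 fold changes, of which 496 kept their direction and their side of the threshold. In 14 a call was lost, in 27 a call was gained, and in 10 the sign changed, all of these for Trpc4ap. Of the 15 called among them, 9 were called in every alternative that tested them, and none changed sign. Causes of the changes below were not tested.

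All genes called were 5001. They were 2634 with at least 10 counts in every library, 1744 with the fold tested against 4 itself, 2697 with block and length and GC correction together, and 8960 with a fold above 2. Members called higher in the adult, 26, were 14, 13 and 14 under the first 3 of these. With 10 counts in every library only 33 members were tested. Those called higher in the embryo, 3, were 5 with a fold above 2 and 5 without embryos 1 and 4. They were 2 with block and correction together, where Trpv6 was not called (log2 1.86). With the fold tested against 4 in edgeR they were 0, with 2 at an unadjusted p below 0.05. DESeq2 was run only with the ordinary test and a fold above 4, where it called 3. The median of −1.96 was −1.004 with the correction, −1.17 with block and correction and −1.01 with the correction but without embryos 1 and 4. Computed for each of the 7 embryos against the adult mean, the median had an SD of 0.26. Leaving out 1 library gave 3683 to 5290 genes, 24 to 29 and 3 to 4 members, and medians of −2.14 to −1.78. With 1 adult left, its spread is taken to be that of the embryos.

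The replicate block, which pairs stages by number alone, gave 4236 genes, 19 and 3 members and a median of −1.91. Its stage difference rests on embryos 1 and 2 against the adults, since no other embryo shares a number with an adult. Embryo 1 is among the libraries that stood apart, and it had no count of Cacna2d4. The correlation of deviations between the stages was 0.0331 for number 1 and 0.000313 for number 2, so the numbers show no pairing. Signs changed for Cacna1h (−0.12), Cacna2d4 (−2.73, called higher in the adult), Cacng8 (0.094), Trpc4ap (−0.075) and Trpv2 (0.25). With block and correction they changed for Cacna1e (0.47), Cacna2d4 (−2.20), Scn1a (0.29), Scn2a (0.077), Trpc4ap (−0.30) and Trpm6 (0.27).

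With the correction alone, Cacna1b was at 0.27, Scn1a at 1.23, Scn2a at 0.12, Trpc4ap at −0.24 and Trpm6 at 0.41. Without embryos 1 and 4 as well, they were at 0.28, 1.46, 0.28, −0.13 and 0.61. Without these embryos and uncorrected, Scn4b was at −0.13. With library size alone Cacna1s was at −0.026, Cacna2d4 at −0.075 and Trpc4ap at −0.16. Trpc4ap was also at −0.011 in DESeq2, at −0.011 with its size factors and at −0.024 with 10 counts in every library. The median of all genes moved by more than 0.1 to −0.26 with library size alone, −0.20 with the block, −0.16 with the correction, −0.25 with both and −0.18 with the correction without embryos 1 and 4.

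Leaving out 1 library gave −0.079 to 1.11 for Cacna1g (lowest without adult 2), −0.12 to 0.56 for Cacna1h (without adult 1), −0.24 to 0.56 for Cacna1s and −0.43 to 1.11 for Cacna2d4 (both without adult 2). It gave −0.31 to 0.99 for Scn4b (lowest without embryo 1), −0.031 to 0.15 for Trpc4ap (without embryo 2) and −1.31 to 0.52 for Trpm6 (highest without adult 2). Scn11a was not called without embryo 1, 3, 4 or 6 or either adult (−2.28 to −1.80), Cacna1f (−2.81) without adult 1, nor Scn9a (−1.997) and Trpc7 (−3.09) without adult 2. Scn10a without adult 1 and Trpv3 without adult 2 did not reach the count filter. Trpm7 was called without embryo 1 or 4 (−2.02 and −2.03) and Scn2a without adult 1 (−2.08). Cacna1e was called without embryo 1 or 2 or adult 2 (−2.15 to −2.09) and Cacna2d3 without embryo 1 or 2 or adult 1 (−2.12 to −2.02).

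The L-type share and the ratio of Scn3a to Scn2a kept their direction, without overlap, in all 12 alternatives each. The length and GC correction was not among these, and neither value was computed with it. Counts were few for many members: of the 63, 25 were at 3 counts or fewer in at least 1 embryo.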
